A study of Mus musculus with 5 samples.

Results

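Open chromatin was read as ATAC-seq peaks in forebrain and in limb ectoderm of CD1 mouse embryos, and the regions described here are those at gene ends where only the forebrain library had a peak. The peaks of the 5 libraries on chromosomes 1 to 19 and X that shared at least 1 bp were joined, which gave 231437 regions. The members were chosen by peak presence and position: a peak in the forebrain library, none in the 4 ectoderm libraries, and a midpoint at most 2.5 kb from an end of a protein-coding gene (mm10). This gave 4849 forebrain-only gene-end regions. They are 17.7% of the 27441 regions near a gene end, whereas forebrain-only regions are 33.2% of all regions. Put the other way, 6.32% of the 76769 forebrain-only regions lay near a gene end (95% interval 6.15 to 6.49%), against 7.83% of the 5379 regions that had peaks throughout the 4 ectoderm libraries but none in forebrain, and 63.1% of the 15568 regions with a peak in all 5 libraries.

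The forebrain sample was 1 library from E13.5 (embryonic day), digested with collagenase after removal of the skull cartilage. The ectoderm samples were 2 libraries of distal forelimb and 2 of distal hindlimb, all from E14.5 and freed from the tissue beneath with trypsin. All embryos were of the CD1 stock, and no mutation or treatment is named. Tissue, stage and dissociation differ together between forebrain and ectoderm and cannot be told apart. With 1 forebrain library no test of a difference between the tissues was possible, and no p-value is given. Exact 95% intervals of shares (Clopper-Pearson) cover counting error only.

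ATAC-seq uses a transposase that inserts adapters where DNA is not wrapped tightly in nucleosomes, so its peaks mark promoters, enhancers and insulators. Promoters of genes used in every cell usually lie in CpG islands, stretches rich in the CG dinucleotide that stay free of methylation, and are open in most tissues. Promoters of tissue genes are more often open only where the gene is used, and many genes also have enhancers a short way from their start. At the stage sampled, the forebrain holds dividing progenitors beside the ventricle, newborn excitatory neurons of the cortex and newborn inhibitory neurons of the ganglionic eminences.

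The proximal promoters of 6 of the strongest forebrain-only regions that span a gene start are printed here, because the base composition described further on can be read from them. Each is the 250 bases before the RefSeq start (GRCm38.p6, the mm10 assembly), read in the direction of transcription, and capitals mark matches to the short motifs named below on either strand. Celf3, a splicing and translation regulator of neurons, lies at chr3:94478045-94478294 on the plus strand and holds only 4 CG dinucleotides. Isl2, a LIM-homeodomain factor of neuron subtypes, is read at chr9:55540899-55541148 on the plus strand, before a start inside the gene, and holds 16. Nbeal2, needed for platelet granules, lies at chr9:110654162-110654411 on the minus strand and holds 14. Neurod1, a basic helix-loop-helix factor of neuronal differentiation, lies at chr2:79456637-79456886 on the minus strand and holds 22. Olig2, a factor of ventral progenitors and oligodendrocytes, lies at chr16:91225300-91225549 on the plus strand and also holds 22. Soga3 lies at chr10:29143746-29143995 on the plus strand and holds 7.
Celf3: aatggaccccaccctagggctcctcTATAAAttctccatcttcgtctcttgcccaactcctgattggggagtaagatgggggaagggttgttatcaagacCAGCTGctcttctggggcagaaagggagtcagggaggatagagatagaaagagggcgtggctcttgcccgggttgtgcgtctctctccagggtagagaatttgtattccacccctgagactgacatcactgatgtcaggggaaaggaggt
Isl2: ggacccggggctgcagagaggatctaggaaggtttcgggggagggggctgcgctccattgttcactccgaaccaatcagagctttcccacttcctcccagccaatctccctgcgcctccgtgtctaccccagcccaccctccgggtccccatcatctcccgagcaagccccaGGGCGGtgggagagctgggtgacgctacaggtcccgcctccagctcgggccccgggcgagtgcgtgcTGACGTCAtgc
Nbeal2: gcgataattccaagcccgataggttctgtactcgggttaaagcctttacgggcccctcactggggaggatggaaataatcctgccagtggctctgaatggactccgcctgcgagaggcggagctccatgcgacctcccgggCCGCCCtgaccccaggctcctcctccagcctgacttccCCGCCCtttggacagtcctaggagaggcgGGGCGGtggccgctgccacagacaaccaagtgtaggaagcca
Neurod1: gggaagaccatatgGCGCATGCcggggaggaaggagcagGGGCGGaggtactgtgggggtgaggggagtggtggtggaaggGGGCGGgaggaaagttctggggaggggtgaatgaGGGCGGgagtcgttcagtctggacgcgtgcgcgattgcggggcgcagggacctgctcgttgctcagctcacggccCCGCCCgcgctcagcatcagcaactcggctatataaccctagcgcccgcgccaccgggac
Olig2: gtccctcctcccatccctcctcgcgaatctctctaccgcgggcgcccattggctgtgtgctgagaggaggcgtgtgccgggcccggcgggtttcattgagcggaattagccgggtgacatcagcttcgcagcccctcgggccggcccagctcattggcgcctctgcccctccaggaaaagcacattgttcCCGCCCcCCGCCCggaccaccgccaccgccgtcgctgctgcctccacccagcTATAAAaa
Soga3: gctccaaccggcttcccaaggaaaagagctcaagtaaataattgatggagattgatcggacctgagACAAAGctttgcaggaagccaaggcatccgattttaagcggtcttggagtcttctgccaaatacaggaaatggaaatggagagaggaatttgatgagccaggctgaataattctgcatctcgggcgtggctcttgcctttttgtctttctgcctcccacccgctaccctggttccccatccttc
The capitals in Celf3 are TATAAA, known as the TATA box, and CAGCTG (an E-box of proneural factors), and those in Isl2 are GGGCGG (GC box) and TGACGTCA (CRE). In Nbeal2 they are GC boxes, in Neurod1 a GCGCATGC (NRF1) and GC boxes, in Olig2 GC boxes and TATAAA, and in Soga3 ACAAAG (SOX). A match is a run of letters and does not show that a factor binds.

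The forebrain-only gene-end regions ranged from barely called peaks to very strong ones. The summit's fold enrichment and the −log10 q-value are the authors' own values within the forebrain list, where a larger −log10 q is a peak further above local background. The median fold was 3.20 (range 1.44 to 18.9) and the median −log10 q was 6.34, with quartiles of 3.42 and 12.6 and a maximum of 213. The median width was 312 bp. These values belong to the rule's own readout and describe the members only. The gene-end regions with a peak in all 5 libraries had a median forebrain fold of 13.1, a median −log10 q of 196 and a median width of 1061 bp. The forebrain-only regions away from gene ends had a median −log10 q of 5.39. Of the 4849, 2911 had a −log10 q of 5 or more, 1576 of 10 or more, 670 of 20 or more and 121 of 50 or more. Those of 20 or more are called strong below.

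The ectoderm libraries give the number of gene-end regions that a single library has alone. Each of them was also set against a replicate of its own tissue, which forebrain lacks, so the counts are not matched. Forelimb ectoderm replicate 1 had 1528 gene-end regions alone, of which 276 had a −log10 q of 5 or more and 17 of 10 or more. Forelimb ectoderm replicate 2 had 1338, with 253 and 24 past those values. Hindlimb ectoderm replicate 1 had 1385, with 114 and 3. Hindlimb ectoderm replicate 2 had 1739, with 434 and 73. The forebrain count was thus largest at each value. At 20 or more, forelimb ectoderm replicate 2 had 2 regions and hindlimb ectoderm replicate 2 had 8, the other ectoderm libraries had 0, and forebrain had 670. The forebrain list was also the longest, with 120280 peaks on these chromosomes against 51392 to 78075 in ectoderm, and its part in these counts was not tested. When each list was cut to its 51392 strongest peaks, 1918 forebrain-only gene-end regions were left.

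**Figure D1:**
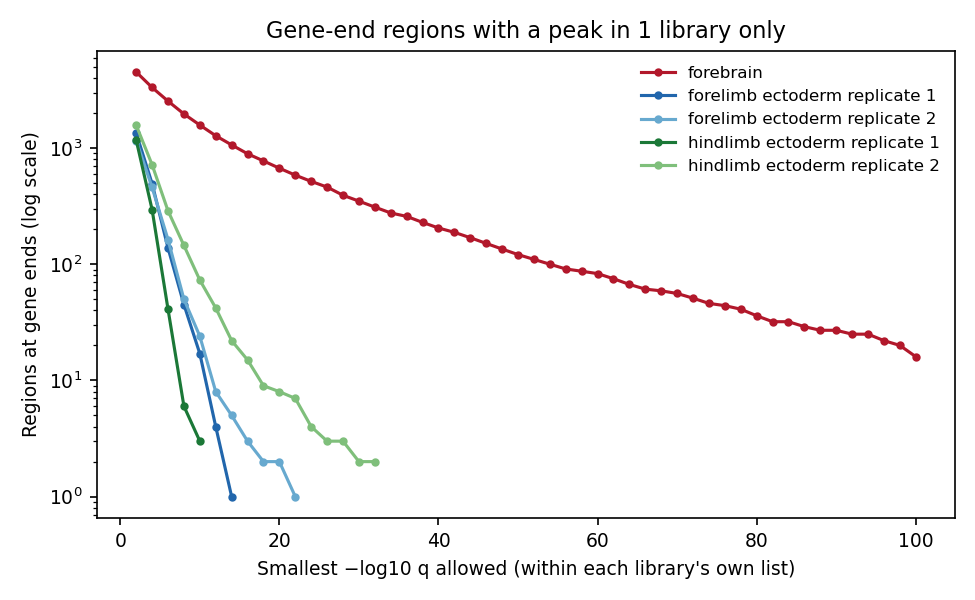
Number of gene-end regions with a peak in 1 library only (vertical axis, log scale) against the smallest −log10 q allowed within that library's own list (horizontal axis), 1 line for each library. At 20 or more, 670 forebrain-only regions were left, against 8 in hindlimb ectoderm replicate 2, 2 in forelimb ectoderm replicate 2 and 0 in the other ectoderm libraries.

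Most forebrain-only gene-end regions did not sit on the start itself. The median distance from midpoint to the nearest gene end was 1008 bp, and 28.3% lay within 500 bp of it. Regions with a peak in all 5 libraries lay at a median of 179.5 bp, with 80.9% within 500 bp. Among forebrain-only regions, 1860 were nearest to a gene's start, 1832 to its far end, and 1157 to an end whose direction was not listed. The start share was therefore 50.4% (95% interval 48.8 to 52.0%), against 95.8% for regions with a peak in all 5 libraries, 63.2% (57.6 to 68.5%) for regions with peaks throughout the 4 ectoderm libraries but none in forebrain, and 69.4% for all gene-end regions. Of the forebrain-only regions, 504 (10.4%) covered a listed start. Genes without a listed start cannot add to this count, so this share and those by strength below are minimums. Starts and far ends thus held nearly equal numbers of forebrain-only regions.

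Position followed strength. At a −log10 q under 5, 42.8% of the regions with a known direction were nearest to a start and 5.47% of all 1938 covered one. The start share was 52.8% from 5 to 10, 57.1% from 10 to 20, 57.9% from 20 to 50 and 61.2% (50.8 to 70.9%) at 50 or more. The share that covered a start was 37.2% at 50 or more, where the median distance was 443.5 bp. In the weaker steps the median distance was 984.5 to 1058 bp. The regions alone in 1 ectoderm library, which were mostly weak, had start shares of 40.2 to 43.8%, close to the 42.8% of the weakest forebrain-only regions.

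**Figure D2:**
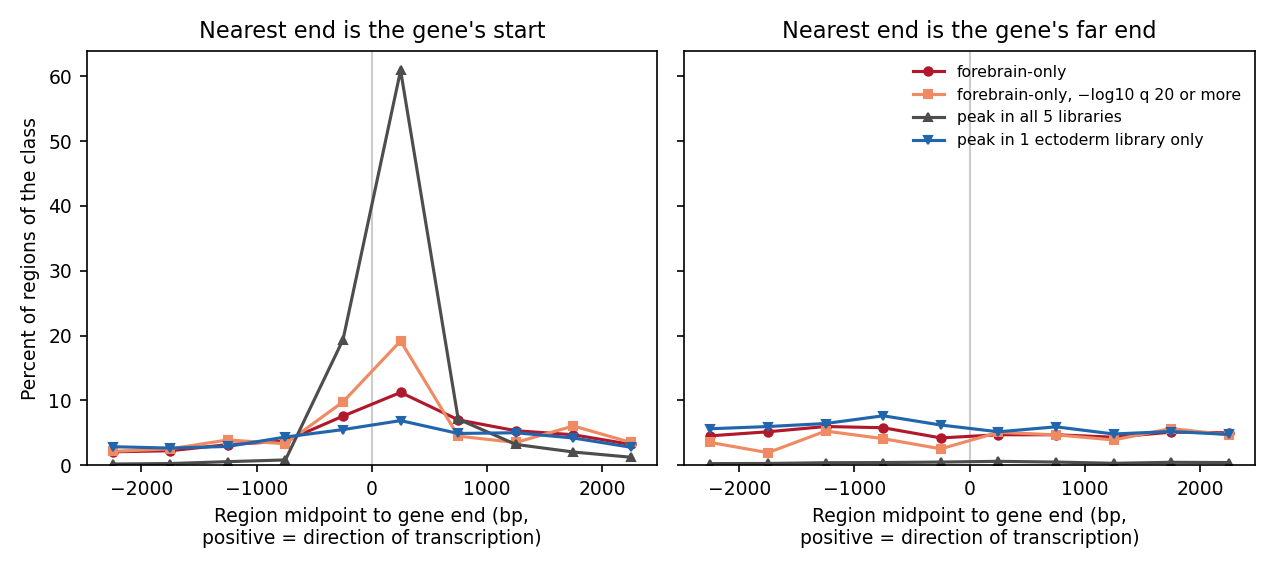
Percent of regions of each class (vertical axis) in 500 bp steps of the distance from region midpoint to its nearest gene end (horizontal axis, bp, positive in the direction of transcription), for regions nearest to a start (left) and to a far end (right). Forebrain-only regions peak just inside the start at 11.2%, those of −log10 q 20 or more at 19.2%, and regions with a peak in all 5 libraries rise far higher there and stay near 0 at far ends.

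The gap was measured from each forebrain-only region to the nearest region with an ectoderm peak, whether or not forebrain shared that region. It is not given for other classes of region, so nearness has no background here. The median gap to the nearest region with an ectoderm peak was 2192 bp (quartiles 588 and 6098 bp). For 1104 regions (22.8%) it was within 500 bp, and for 598 (12.3%) it was 10 kb or more. The strong regions had a median gap of 2198 bp, and 137 of the 670 lay within 500 bp. Nearness to an ectoderm peak was thus about the same in the strong regions as in all of them.

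At the level of genes, 4453 of 21627 protein-coding genes (20.6%) had a forebrain-only region at an end. Of them 3597 had 1, 735 had 2 and 121 had 3 or more. A strong one was found at 724 genes (3.35%). Of the regions, 566 lay at ends of 2 or more genes and were counted for each. Not every gene that shares a region is named below. For 3671 of the 4453 (82.4%) an ectoderm library had a peak elsewhere at an end of the same gene, which was so for 77.5% of all genes. Ectoderm peaks in all 4 libraries were found at 48.5% of the 4453 and at 53.5% of all genes, and peaks in 1, 2 or 3 of them at 12.7, 8.83 and 12.4% against 9.05, 5.95 and 8.98%. The remaining 782 genes (3.62% of all) had no ectoderm peak at either end, and 139 of these had a strong forebrain-only region. A missing peak says that none was called, and a closed site cannot be told apart from one that is weakly open or open in few cells. The X chromosome held 127 of the regions (2.62%), close to the 2.55% of all gene-end regions.

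The strongest of all was the region at Celf3, chr3:94477902-94478828, which covers the start of that gene and lies at an end of Riiad1 as well. Its forebrain fold was 13.6 and its −log10 q 213. The other region at the ends of Celf3 had no forebrain peak and ectoderm peaks of fold 3.68 in forelimb replicate 1, 4.72 in forelimb replicate 2 and 3.88 in hindlimb replicate 2, and none in hindlimb replicate 1. Isl2 came next at chr9:55540784-55541347, with a fold of 11.6 and a −log10 q of 193. Smim18, a gene for a small integral membrane protein, followed at chr8:33747368-33748141, with a fold of 18.1 and a −log10 q of 183. No ectoderm library had a peak at either end of Smim18, and the nearest ectoderm region was 13599 bp away.

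The other members of the 20 strongest lay at genes of mixed function. Tenm4 (−log10 q 160) encodes a teneurin, a large adhesion protein of neurons. Slit1 (116) encodes a repellent of growing axons, Stmn4 (115) and Stmn2 (107) encode stathmins that regulate microtubules, and Ncan (101) encodes the brain proteoglycan neurocan. Celsr3 (98.4), an atypical cadherin of axon tracts, and Neurod1 (110) and Olig2 (104) were also among them. Fgl1 (115), best known as a secreted protein of liver, Slc39a8 (107), a metal transporter, Nbeal2 (147), Ccdc188 (114), Eml2 (99.9), Zfp219 with Arhgef40 (105) and Soga3 (102) were in the same group, as was Dct (98.9), an enzyme of melanin synthesis that neural progenitors also express. The Nbeal2 region lies at an end of Ccdc12 too. Also among the 20, LOC108167368 (98.7) is a model gene whose reads may be shared with near-identical copies, so its value is uncertain.

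Genes for forebrain progenitor and patterning factors held a forebrain-only region most often among the 27 lists: 31 of 43 genes (72.1%, 95% interval 56.3 to 84.7%), against 20.6% of all genes. The same list had 6.98, 4.65, 4.65 and 14% of its genes beside a region alone in forelimb replicates 1 and 2 and hindlimb replicates 1 and 2, where all genes had 7.45, 6.58, 6.83 and 8.49%. A strong region was found at 11 of the 43 genes (25.6%), against 3.35% of all genes. With every peak list cut to equal length, 51.2% of the progenitor genes held a forebrain-only region, against 9.26% of all genes. These factors keep neural stem cells dividing or give each part of the forebrain its identity. Of the 43 genes, 40 had an ectoderm peak at an end, whether or not forebrain shared it. Any forebrain peak at an end was found at 42 of the 43 genes (97.7%), against 72.3% of all genes. In the other neural lists that share was 92.7 to 100%. Among genes with any forebrain peak, a forebrain-only region lay at 31 of 42 progenitor genes and 4453 of 15630 over all genes. The counts were 15 of 29 excitatory, 16 of 33 inhibitory and 18 of 41 cytoskeleton genes. They were 9 of 15 zinc finger, 28 of 62 axon guidance and 17 of 45 vesicle genes. Of postsynaptic genes they were 18 of 38, of channel genes 24 of 53 and of neuropeptide genes 9 of 25. The glutamate and GABA receptor genes, at 12 of 40, lay near all genes.

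The strongest progenitor region was at Fezf2, a zinc finger factor of deep-layer cortical neurons and their progenitors, 860 bp past its far end at chr14:12337520-12338744. Its forebrain fold was 6.81 and its −log10 q 86.7. Of the ectoderm libraries, hindlimb replicate 2 alone had a peak at an end of Fezf2, with a fold of 2.76. Hes5, a Notch target that holds progenitors undifferentiated, had a region of −log10 q 67.2 over its start, and a separate end region with peaks in all 5 libraries (folds 4.63 and 2.88 in forelimb, 2.21 and 4.43 in hindlimb ectoderm). Fabp7, the fatty acid binding protein of radial glia, had a region of −log10 q 65.2 over its start, and a hindlimb replicate 2 peak of fold 3.40 beside it. Zic1 (63.6), on an end shared with Zic4, and Nr2e1 (60.6), the nuclear receptor of neural stem cells, followed. Nr2f1 (49.6) and Lhx2 (33.3), which pattern the cortex, also had strong regions. Pax6 had 4 regions, all weak, with a highest −log10 q of 3.78. Of the 31 genes with a forebrain-only region, Vax1 (18.3) and Lhx9 (16.7) had no ectoderm peak at either end.

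Excitatory neuron genes had a forebrain-only region at 15 of 30 (50%, 31.3 to 68.7%) and inhibitory neuron genes at 16 of 35 (45.7%, 28.8 to 63.4%), with 4 strong ones in each. Neurod1 led the first list. Its region at chr2:79456374-79457120 covers the start and had a fold of 7.30. Another region at its ends, which also had a forebrain peak, had ectoderm folds of 6.35 and 5.26 in forelimb and 5.12 and 7.97 in hindlimb. Neurod6 (−log10 q 39.8), Neurod4 (29.2) and Ebf3 (20.6), further factors of neuronal differentiation, completed the strong ones. Another end region of Neurod4 had ectoderm folds of 11.4 and 10.7 in forelimb and 3.63 and 8.84 in hindlimb. At Neurod6 these were 3.39 and 3.57, and 2.59 and 3.37. At Ebf3 the highest were 3.29 and 3.09 in forelimb and 6.58 in hindlimb replicate 2, with no peak in hindlimb replicate 1. Neurod2 (17.2) had no ectoderm peak at either end. Eomes (15.7), the mark of intermediate progenitors, had 3 regions. Olig2 led the second list, with a region at chr16:91225190-91225896 of fold 9.53. Forelimb replicate 1 had a peak of fold 2.75 and hindlimb replicate 1 one of 2.54 at other end regions of Olig2, and the other ectoderm libraries had none. Gad1 (31.9), an enzyme that makes the transmitter GABA, Nkx2-2 (29.2) and Ebf1 (22.7) followed, and Gsx2 (15.5), a factor of lateral ganglionic eminence progenitors, had no ectoderm peak at an end.

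The list of zinc finger factors linked to neurons, which also holds the corepressor Rcor2 and the repressor Rest, was small and had high values. Of 15 genes, 9 held a forebrain-only region (60.0%, 32.3 to 83.7%), 6 a strong one, and 4 had no ectoderm peak at either end: Zeb2 (44.1), Myt1l (37.2), Myt1 (30.1) and Zfp536 (7.63). The single ectoderm libraries had regions alone at 1, 0, 0 and 0 of these genes. Scrt1, a neuronal repressor of the Snail family, had the strongest at −log10 q 75.8, and its relative Scrt2 had 38.0. Zeb2, which directs interneuron migration, had 3 regions with no ectoderm peak in any library, the strongest over its start with a fold of 5.47. Myt1l, a repressor of non-neuronal genes, also had 3, the strongest 8 bp from the start with a fold of 5.2. Rcor2, a corepressor, had 28.4, and Rest, the repressor of neuronal genes outside neurons, had the lowest value at 1.88.

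Genes of the neuronal cytoskeleton and of neuronal RNA-binding proteins had a forebrain-only region at 18 of 41 (43.9%), and 8 were strong. After Celf3, Stmn4 and Stmn2 these were Gap43 (49.9), a growth cone protein, Dcx (38.3), the microtubule protein doublecortin, Kif5c (35.2), a kinesin motor, Tubb3 (32.7), the neuronal tubulin, and Map2 (21.9), a dendrite protein. Dcx was the one gene of this list without any ectoderm peak at an end, and the nearest ectoderm region to its strongest region was 33988 bp away. At the ends of Stmn2, ectoderm folds were 4.86 and 4.76 in forelimb and 3.42 in hindlimb replicate 2, with no peak in hindlimb replicate 1. At Gap43, forelimb replicate 1 alone had an ectoderm peak, of fold 3.99.

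Axon guidance and neural adhesion genes had a region at 28 of 63 (44.4%, 31.9 to 57.5%), 8 of them strong. Within 1 kb of an end, 12.7% of them had one, against 10.7% of all genes. Ligands were at the top, with Slit1 and the ephrins Efnb2 (49.1) and Efnb3 (48.0). Among receptors, Epha8 (33.4) and Epha3 (32.1) were strong, and Nrp1 (18.4), Robo3 (11.1) and Dcc (10.5) were weaker. Cntnap1 (42.0), whose region also lies at an end of Ccr10, Ncam2 (32.5) and Cntnap4 (28.0) led the adhesion proteins. All 28 genes had an ectoderm peak elsewhere at an end. Efnb2 shows this pattern: its forebrain-only region had a fold of 3.22. Another region at its ends had folds of 13 and 10.4 in forelimb and 7.91 and 10.8 in hindlimb ectoderm. That other region also had a forebrain peak, of fold 11.2 and −log10 q 453, stronger than the forebrain-only one.

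Genes of synapses and channels were counted in the same way. Synaptic vesicle genes had 17 of 46 (37.0%) with 2 strong ones, Syngr1 (23.1) and Doc2b (22.7). Postsynaptic and synaptic adhesion genes had 18 of 41 (43.9%) with 3, Lrrtm2 (85.3), an adhesion protein of excitatory synapses, Lrrc4b (28.1) and Camk2a (25.7). Voltage-gated channel genes had 24 of 54 (44.4%) with 4, Cacng7 (71.3), Kcna2 (45.7), Kcnd2 (34.9) and Kcnd3 (26.5). Of these, Syngr1 and Kcna2 had no ectoderm peak at an end. Glutamate and GABA receptor genes had 12 of 42 (28.6%, 15.7 to 44.6%) and no strong one, with Grin3a highest at 11.7. That interval includes the 20.6% of all genes. Within 1 kb of an end the receptor share was 9.52% against 10.7% of all genes, and without regions that had an ectoderm peak within 500 bp it was 16.7% against 16.3%. The median −log10 q of the strongest region per gene was 15.4 in the progenitor list, 30.1 in the zinc finger list and 14.7 in the cytoskeleton list, and it was 10.9 for excitatory, 9.60 for inhibitory, 10.3 for axon guidance, 8.46 for vesicle, 8.64 for postsynaptic, 6.66 for channel and 5.70 for receptor genes, beside 7.09 over all genes with such a region. Neuropeptide and granule genes had 9 of 26 (34.6%, 17.2 to 55.7%), led by Nxph1 (37.5), Pdyn (36.1) and Pcsk1n (24.8). That interval also includes the 20.6% of all genes. The intervals of vesicle (23.2 to 52.5%), postsynaptic (28.5 to 60.3%) and channel genes (30.9 to 58.6%) lay above it. With lists of equal length the shares were 30% for excitatory, 20.0% for inhibitory, 22.2% for axon guidance, 19.6% for vesicle, 26.8% for postsynaptic, 25.9% for channel and 11.9% for receptor genes, against 9.26% of all genes in that setting. Among wider families with all peaks kept, such regions lay at 33 of 94 potassium channel genes (35.1%) and 109 of 389 solute carriers (28.0%), against 20.6% of all genes. With lists of equal length these families had 22.3 and 11.8%.

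**Figure D3:**
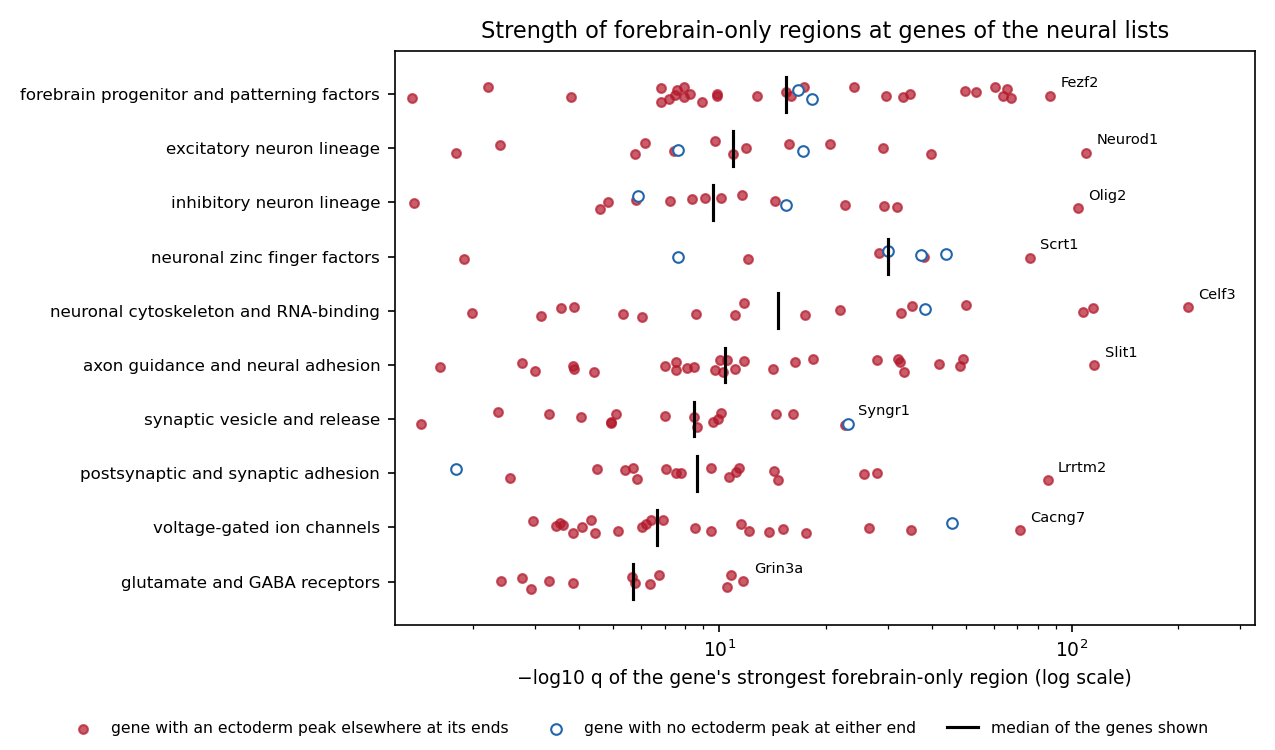
−log10 q (horizontal axis, log scale) of the strongest forebrain-only region of each gene that has one, for the 10 neural lists, with the highest gene of each list named and a bar at the median. Open circles mark genes without an ectoderm peak at either end. Celf3 is farthest right at 213, and the receptor genes all lie at or below 11.7.

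Lists for other cell types also held forebrain-only regions, read here against the 20.6% of all genes. The 95% interval lay above that share for limb mesenchyme and cartilage and included it for the other lists of this kind. Limb mesenchyme genes had 13 of 24 (54.2%, 32.8 to 74.4%), led by Osr2 (70.3) and Prrx1 (54.5), factors of connective tissue. Cartilage genes had 7 of 14 (50%, 23.0 to 77.0%) and endothelium and pericyte genes 8 of 20 (40.0%, 19.1 to 63.9%), with 1 and 0 strong ones. Blood and microglia genes had 7 of 21 (33.3%, 14.6 to 57.0%), with Epor (29.4), P2ry12 (13.3), Alas2 (10.9) and Hbb-bt (8.43) highest. Melanocyte, crest and Schwann genes had 6 of 13 (46.2%, 19.2 to 74.9%), led by Dct (98.9) and Tyrp1 (14.4), and meninges and choroid plexus genes had 5 of 15 (33.3%, 11.8 to 61.6%), led by Ttr (46.1), the transport protein of choroid plexus, and Foxj1 (30.9). Epidermis genes had 11 of 40 (27.5%, 14.6 to 43.9%), with Krtdap (45.7) and Klf4 (33.1) highest, and hindlimb replicate 2 had regions alone at 30% of the same genes. Genes with a forebrain-only region and no ectoderm peak at either end were found here too. They were 3 of 13 melanocyte, crest and Schwann, 4 of 21 blood and microglia and 4 of 24 limb mesenchyme genes. They were 2 of 20 endothelium, 1 of 15 meninges, 1 of 40 epidermis and 0 of 14 cartilage genes. The progenitor list had 2 of 43, the zinc finger list 4 of 15 and all genes 782 of 21627. In the other neural lists the share was 0 to 6.67%. This class was thus not limited to neural lists. The part of other cell types in the result was not tested. With peak lists of equal length the shares were 23.1% for melanocyte, crest and Schwann, 20.8% for limb mesenchyme, 20% for meninges and choroid plexus, 19% for blood and microglia, 12.5% for epidermis, 10% for endothelium and 7.14% for cartilage genes, against 9.26% of all genes in that setting. The lists are small, and the intervals of most of them overlap.

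Marker genes of 10 cell types or regions were checked for a peak at an end. Peaks at gene ends were found in forebrain for 8 of 8 progenitor markers, 6 of 6 neuron markers, 6 of 6 meninges and mesenchyme markers, 5 of 6 endothelial, 3 of 5 cartilage, 3 of 6 blood and microglia and 3 of 6 epidermis markers. Forebrain peaks were also found for 5 of 5 midbrain, 4 of 4 neural crest and glia and 3 of 4 eye markers. Krt5, Krt14 and Trp63, which define basal epidermis, had no forebrain peak, nor did Cx3cr1, Ptprc, Gata1, Pecam1, Tyr, Matn1 and Col9a1. Ectoderm libraries also had peaks at 4 to 7 of the 8 progenitor and 3 to 5 of the 6 neuron markers. Of the 6 epidermis markers, forelimb replicates 1 and 2 each had peaks at 6, hindlimb replicate 2 at 5 and hindlimb replicate 1 at 2. Hindlimb replicate 1 thus lacked a called peak at most epidermis markers. Forebrain-only regions lay at 6 of the 8 progenitor and 4 of the 6 neuron markers, 4 of the 6 meninges and 3 of the 6 endothelial markers, and 4 of 5 midbrain markers (En1, En2, Pax2 and Pax7). Forebrain-only regions also lay at 2 of 5 cartilage, 2 of 4 eye and 1 of 4 neural crest and glia markers. They lay at 1 of 6 epidermis and 0 of 6 blood and microglia markers. Every progenitor, neuron, meninges and mesenchyme, midbrain, and neural crest and glia marker thus had a forebrain peak. The progenitor and neuron markers often had ectoderm peaks as well, and peaks at markers do not give the cell makeup of the sample.

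Several gene families were at or under the background. Olfactory and vomeronasal receptor genes had a region at 35 of 1465 (2.39%), genes with a Zfp symbol at 46 of 400 (11.5%), genes whose symbols begin with Rpl or Rps at 10 of 101 (9.90%), clustered protocadherins at 9 of 57 (15.8%) and genes with a Krt symbol at 19 of 112 (17.0%). Any forebrain peak at an end was found at 72.3% of all genes. It was found at 3.34% of olfactory and vomeronasal, 43.9% of protocadherin and 26.8% of Krt genes. Among genes with such a peak, a forebrain-only region lay at 35 of 49 receptor, 9 of 25 protocadherin and 19 of 30 Krt genes. The same counts were 46 of 351 for Zfp genes, 10 of 94 for Rpl or Rps genes and 4453 of 15630 over all genes. The housekeeping list had 4 of 20 (20.0%), near the 20.6% of all genes. Hox genes, which pattern the trunk and limbs and not the forebrain, had 13 of 39 (33.3%), none strong, with Hoxd12 and Hoxd13 sharing the strongest at −log10 q 15.1. Hindlimb replicate 2 had regions alone at the same share of Hox genes, 33.3%, and forelimb replicate 1 at 20.5%, so the Hox count did not exceed what 1 ectoderm library had alone.

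**Figure D4:**
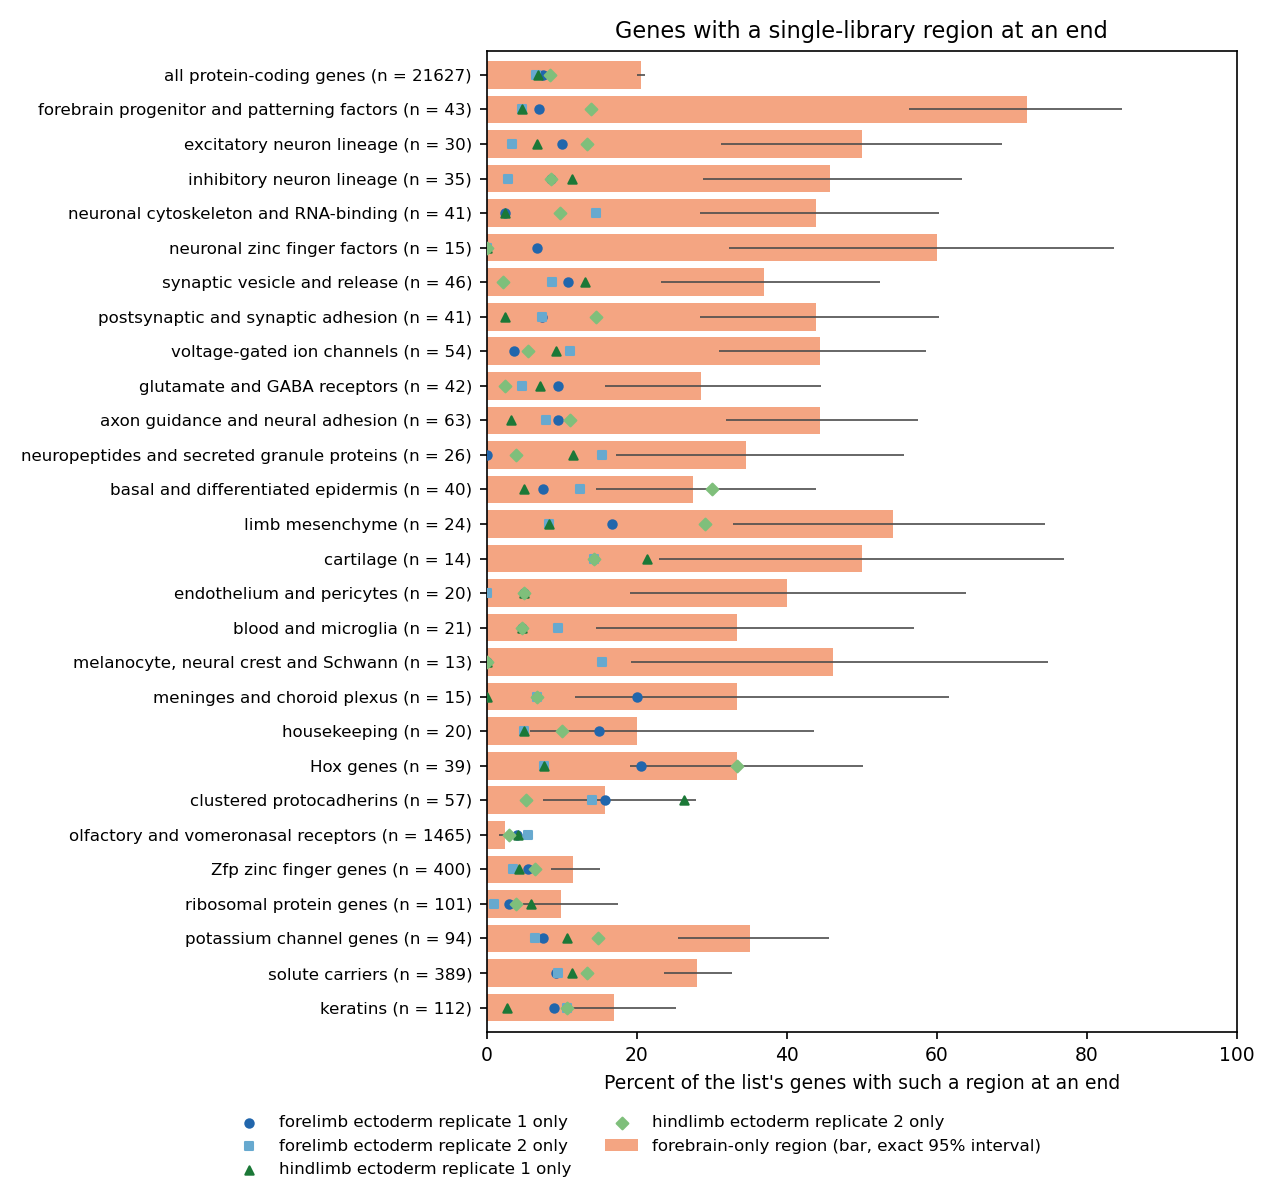
Percent of the genes of each list (horizontal axis) with a forebrain-only region at an end (bars, with exact 95% intervals) and with a region alone in each ectoderm library (points). The bar of progenitor factors reaches 72.1%, the bar of all protein-coding genes 20.6%, and points exceed bars for olfactory receptors and, in 1 library each, for epidermis and protocadherins.

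Among the 782 genes with a forebrain-only region and no ectoderm peak at either end, Smim18, Soga3 and Nek6 (81.1), a mitotic kinase, had some of the strongest. Slco1c1 (66.4), a thyroid hormone transporter of brain vessels, Mt3 (52.2), a metallothionein of brain, and Igfbpl1 (49.6) followed the same pattern. So did Ghrh (50.1), the hypothalamic hormone that releases growth hormone. The Ghrh region also lies at an end of Rpn2, and the Igfbpl1 region at an end of Stra6l. Epb42 (56.7), a protein of the red cell membrane, and Sfrp4 (60.1), a secreted Wnt antagonist, were in the same class. Ifna1 (81.7), Gm13286 with Gm13271 (76.8), Zfp729b (70.9), Olfr658 (60.6) and Gm2897 (52.6) belong to families with near-identical copies, and their values are uncertain because the handling of reads that map to several places was not stated. The median −log10 q of the strongest region was 6.68 for these 782 genes and 7.17 for the others, and 139 of the 782 had a strong one.

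A few genes held several forebrain-only regions. Genes with 4 included Fezf2, Ghrh, Wnt8b, a ligand of the cortical hem, and Shh, the ventral signal of the neural tube. The 4 regions of Fezf2 had folds of 6.81, 1.88, 2.57 and 3.81, and the 4 of Ghrh 8.61, 4.49, 2.37 and 2.85. At Wnt8b 1 region past the far end was strong (fold 5.40, −log10 q 30.3) and the other 3 had −log10 q values of 1.55, 3.28 and 3.18. The strong Wnt8b region also lies at an end of Sec31b. At Shh the 4 values were 4.02, 4.72, 7.80 and 11.5, the highest 95.5 bp from a gene end. Zfp36l2, Slc29a1, Rmc1, Ccn1 and Ninj2 also had 4 each, with their strongest at 22.1, 20.0, 17.6, 11.7 and 11.6. Multiple regions at 1 gene share that gene and are not independent of each other.

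Starts inside a forebrain-only region had a base composition between those of starts open everywhere and starts with no peak. Over the 300 bases from 250 before to 50 after each listed start, CG dinucleotides were counted against the number that the C and G content would give, the CpG observed/expected ratio, which is near 1 where they are not depleted. The median ratio was 0.535 for 545 starts inside a forebrain-only region (2.59% of 21044 listed starts), 0.808 for 9756 starts inside a region of all 5 libraries and 0.190 for 7659 starts in no region. A ratio of 0.6 or more, a usual mark of CpG islands, was found at 40.2, 82.1 and 6.19% of them. Over all listed starts the median was 0.574, with 48.1% at 0.6 or more, so forebrain-only starts were a little below the average start. Starts inside strong regions had a median of 0.562 (182 starts), and starts of genes with no ectoderm peak at an end 0.425 (201 starts). The 88 starts inside regions with peaks throughout the ectoderm libraries but none in forebrain had 0.264. Median GC content was 58.3, 62.7 and 47.0% for forebrain-only, all-library and no region, and 56.7% over all starts. The printed promoters span this range, from a ratio of 0.197 at Celf3 and 0.462 at Soga3 to 0.815 at Olig2 and 0.837 at Neurod1.

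**Figure D5:**
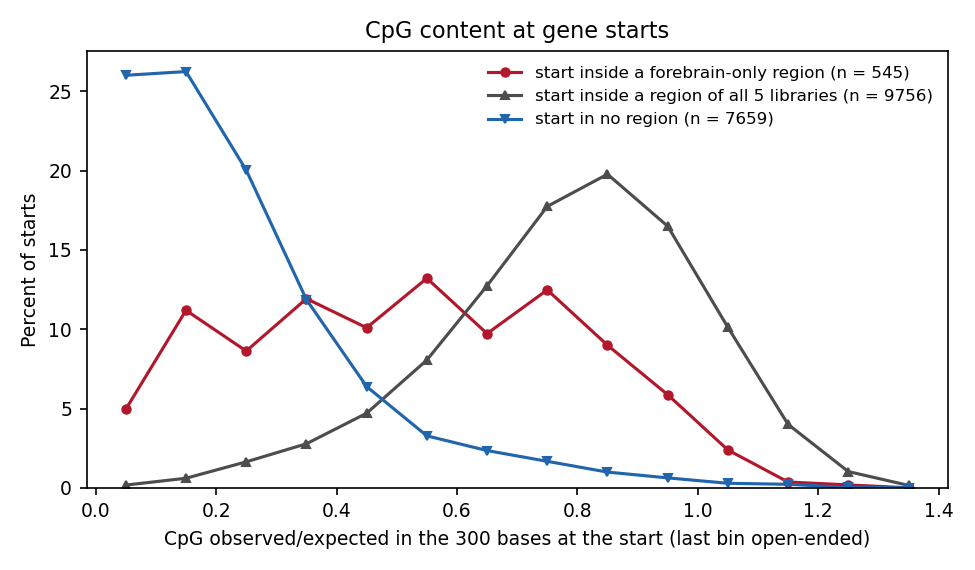
Percent of starts (vertical axis) in steps of the CpG observed/expected ratio over 300 bases at the start (horizontal axis), for starts inside a forebrain-only region (n = 545), inside a region of all 5 libraries (n = 9756) and in no region (n = 7659). The forebrain-only line is broad (median 0.535), between the line of starts with no region (median 0.190) and that of all 5 libraries (median 0.808).

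The motif counts over the same 300 bases, both strands searched, differed between these classes. The GC box (GGGCGG) was in 48.3% of starts inside forebrain-only regions, 71.4% of those open in all 5 libraries, 12.2% of those in no region and 46.7% of all starts. TATAAA was in 11.0, 5.52, 23.4 and 12.7%. Letters of factors that act in the developing brain were at shares near those of all starts: TAATTA (homeodomain) was in 6.42% (4.51 to 8.82%) against 4.47%, ACAAAG (SOX) in 19.3% (16 to 22.8%) against 16.9%, CAGCTG in 18% (14.8 to 21.5%) against 15.7% and CAGATG in 15.6% (12.7 to 18.9%) against 14.4%. Of these 4 intervals, that of TAATTA alone lay above the value of all starts, barely, and starts in no region had TAATTA in 8.0%. The 545 starts belong to 505 genes, and starts of the same gene can share bases. They are not all independent, so the intervals are too narrow and that of TAATTA decides nothing. Letters from either side of the element bound by the repressor REST, TTCAGCACC and GGACAGCG, were in 0.37 and 2.39% of forebrain-only starts and 0.42 and 1.62% of all starts. TGANTCA (AP-1) and GGAATG (TEAD) were in 6.97 and 15.0% of forebrain-only starts, 7.04 and 13% of all starts and 11.3 and 16.7% of starts in no region. In the 88 ectoderm-only starts they were in 17.0% (9.87 to 26.6%) and 27.3% (18.3 to 37.8%). Matches of different motifs may overlap and were counted separately.

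The rule's distance of 2.5 kb cut through a continuous spread of positions. Just inside it lay regions at Usp6nl (2497.5 bp, −log10 q 36.2), Slc48a1 (2499 bp, 31.6) and Abca6 (2499.5 bp, 1.79). Just outside lay regions at Plscr4 (2504.5 bp, 5.19), Astn1 (2507 bp, 29.3) and Zfyve28 (2507 bp, 9.92). At the weak end, regions at Mpdu1, Tmem269 and Lefty2 had −log10 q values of 1.3, 1.31 and 1.31, the lowest that the list holds.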

How the data were processed

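The deposited data are 1 ATAC-seq peak list for each library, so peaks were called per library. The submitters' processing notes list the mm10 build, MACS2 2.1.1.20160309, Bowtie2 2.3.5, cutadapt 1.16, bedtools and Picard. Read shifting was not given in the sources used here. In the narrowPeak layout, the deposited lists hold the authors' values: a fold enrichment (a ratio), −log10 of the p-value and −log10 of the q-value for each peak, and a summit position. A score that the authors deposited beside them was not used. The smallest deposited −log10 q was 1.30 to 1.31 in each list. Total reads, and so depth, are unknown here.

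Peaks were merged in Python 3.11.15 with pandas 2.3.3, with steps tested on simulated data, and intervals came from scipy 1.17.1. Genes and starts came from RefSeq tables of GRCm38.p6. Strand was known for 17273 of 21627 genes (79.9%), those with a listed start. A region was set beside every gene with an end within 2.5 kb. The members and lists were chosen with earlier results of these data known. Of 27 lists, 19 were written by hand and 8 are symbol families, and Zfp238 was not found. Named genes were the 20 strongest members, up to 4 per list with the largest −log10 p, and the 10 genes with most members. Other genes named were chosen after their values were seen, and a few that the rule picks are left out here. Whether the replicates were separate embryos is not in the labels.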

Additional observations from a re-analysis of the deposited data

How the results depend on the processing

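No paired analysis was possible because forebrain has 1 library and the results come from no test. The main values were 4849 forebrain-only gene-end regions, 4453 genes with one, 782 of these genes with no ectoderm peak at an end, 6.32% of forebrain-only regions near a gene end and a start share of 50.4%. Leaving out each ectoderm library in turn gave 5011 to 5499 regions, 4573 to 4922 genes, 896 to 1109 genes with no ectoderm peak, 6.40 to 6.77% near a gene end and start shares of 51.0 to 52.4%. A −log10 q of 5 or more in every list gave 1376 genes with no ectoderm peak, 8.46% near a gene end and a start share of 60.7%. Asking it of the forebrain peak alone gave 2911 regions, 2886 genes, 490 genes with no ectoderm peak, 6.98% and 55.5%. Lists of equal length gave 1918 regions, 2002 genes, 7.99% and 61.0%. Removing regions with an ectoderm peak within 500 bp gave 5.39% and 43.8%. A distance of 1 kb gave 2409 regions, 2318 genes, 3.14% and 60.3%. Summits in place of midpoints, and autosomes alone, left these results within 1.5 times the main count or within the interval of the main share.

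The progenitor list stayed above all genes in 12 of 12 settings, with 48.8 to 81.4% of its genes. The receptor, epidermis and cartilage lists did in 11 of 12, and the other neural and cell type lists in 12 of 12. The settings reuse the same peak lists, so these tallies are not independent support. Small margins count too, such as 10% for endothelium against 9.26% of all genes with lists of equal length. The housekeeping list was above all genes in 2 of 12. In each of these changes the cause was not tested. Precision is limited by the single forebrain library, and whether weak regions recur in a further forebrain library was not tested.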

Other observations

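The potassium channel family held forebrain-only regions beyond the voltage-gated list. Kcnj9, an inward rectifier opened by G proteins, had a region of −log10 q 73.3, and Kcnk12, of the tandem-pore class, had 60.7 with 2 regions. Kcnk9 (35.8) had no ectoderm peak at either end. Among the symbols beginning with Rpl or Rps, Rps10 had the highest value at 20.2. Among limb genes, Alx4 (12.6), Pitx1 (9.43) and Tbx4 (3.43), the latter pair being hindlimb identity factors, had forebrain-only regions and no peak in any ectoderm library at either end. The Pitx1 region also lies at an end of Catsper3. The genes named in this section were chosen after their values were seen.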
